A study of Mus musculus with 15 samples.

Results

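The 2 D genes of the mouse T cell receptor (TCR) β locus, Trbd1 and Trbd2, were examined in the β chain rearrangements of CD8+ PD-1+ CD44+ T cells from tumors and the tumor-draining lymph node (TdLN). They are 2 of the 51 V, D and J genes that the files name. Every rearrangement of the 15 samples was grouped by the D gene listed for it, TCRBD01-01 for Trbd1 or TCRBD02-01 for Trbd2. Of 29992 rearrangements, 12247 (40.8%) carried Trbd1, 12497 (41.7%) carried Trbd2 and 5248 (17.5%) had no D gene assigned. Of the unassigned rearrangements, 4661 were listed as ties between both genes and 587 as joined from V to J with no D gene.

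The samples came from 5 young female C57BL/6 mice with B16F10GP melanomas on both flanks, a line made from B16F10 that expresses the glycoprotein of lymphocytic choriomeningitis virus. All 5 mice were untreated controls of a study of radiation and αPD-L1. Each mouse gave a TdLN, tumor 1 (right flank, implanted first, on the side of the TdLN) and tumor 2 (left flank, implanted later). Samples with the same number were taken as 1 mouse, which the labels do not state. Genomic DNA of the sorted cells was read with the immunoSEQ assay, which lists each distinct 87-base rearrangement with its number of templates, and template totals are estimates from a PCR assay. A rearrangement in frame without a stop codon is called productive, and a productive rearrangement is counted once as a unique TCR whatever its templates. Because DNA was read, these shares are of rearrangements and not of expressed chains.

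A TCR β chain gene is assembled in the thymus when a D segment is first joined to a J segment and a V segment is then joined to the D. The recombinase cuts at signal sequences on each side of D, the exposed ends are trimmed, and terminal transferase adds bases without a template at both joints. The D segment and these bases make up the middle of CDR3, the loop of the receptor that contacts the peptide. D segments can be read in all of their reading frames, and Trbd1 and Trbd2 are rich in G, so that glycine codons are frequent in each frame. A chain that is joined out of frame is not expressed, but its DNA stays in the cell beside the allele that is.

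Both segments lie on chromosome 6 of the mouse genome (build GRCm38, plus strand). Trbd1, 12 bases long, lies at chr6:41533201-41533212 and Trbd2, 14 bases long, at chr6:41542163-41542176. The Trbj1 cluster of 7 genes (chr6:41533864-41535687) follows Trbd1 after 651 bases, and the Trbj2 cluster of 7 genes (chr6:41542754-41543856) follows Trbd2 after 577 bases. Trbd2 thus lies beyond the last Trbj1 gene, so that Trbd1 can reach both clusters by deletion of the DNA in between, whereas Trbd2 can reach only Trbj2 in that way. The segments are shown with the recombination signals that flank them, the D bases in capitals, because every later comparison depends on how these letters differ.
Trbd1 (chr6:41533173-41533251): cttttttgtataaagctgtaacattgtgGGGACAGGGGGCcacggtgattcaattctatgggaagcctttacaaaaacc
Trbd2 (chr6:41542135-41542215): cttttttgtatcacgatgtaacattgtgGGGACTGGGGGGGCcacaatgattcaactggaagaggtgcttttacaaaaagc
The genes share their first bases, differ at the base after GGGAC, and end in runs of 5 G in Trbd1 and 7 G in Trbd2. The longest stretch found in both is GGGGGC, with 6 bases. All 24744 listed D stretches matched their germline gene exactly and none of them fitted inside the other gene. The shortest stretch with a call had 2 bases, and the median was 7 bases for Trbd1 and 8 bases for Trbd2.

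The samples differed widely in size and some shared sequences. TdLN samples held 1290 to 5722 unique TCRs, tumor 1 samples 183 to 366 and tumor 2 samples 50 to 553, the smallest of them in mouse 4. Identical rearrangements were also listed in other mice, and these held 1.80% to 37.2% of productive templates in the TdLN, 7.91% to 92.2% in tumor 1 and 11.8% to 93.4% in tumor 2. Every tested result kept its direction and its side of the threshold when the rearrangements found in another mouse were left out (29 of 29 results).

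A second feature of the files followed the D gene itself. Many rearrangements of a sample had a near twin in the same sample that differed only by 1 base gained or lost in the junction, here called a 1-base indel neighbor. The TdLN samples held 3314 such pairs, the base was a G in 91.5% of them, and in 89.9% it lay in a run of at least 4 G. Both partners carried Trbd2 in 2559 pairs and Trbd1 in 377. A productive rearrangement was paired with an out-of-frame one in 2858. An example in the TdLN of mouse 1 is shown because it is also the leading Trbd2 TCR of tumor 1 of that mouse (Trbv5, Trbj2-7). The D bases are in capitals, and it was chosen after the values were seen as the pair with most templates whose partners differ within a run of at least 6 G.
Productive, 129 templates: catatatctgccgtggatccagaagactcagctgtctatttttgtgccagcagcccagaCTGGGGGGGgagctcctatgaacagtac
Out-of-frame, 5 templates: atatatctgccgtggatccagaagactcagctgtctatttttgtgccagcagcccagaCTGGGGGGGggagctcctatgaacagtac
Out-of-frame, 4 templates: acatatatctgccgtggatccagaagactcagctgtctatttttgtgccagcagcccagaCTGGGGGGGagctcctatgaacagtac
The first has a run of 8 G and the others have runs of 9 and 7.

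Neighbors were most frequent among out-of-frame Trbd2 rearrangements. In the TdLN, 64.98% ± 7.92 (SD, n = 5) of them had a neighbor in their own sample, against 14.5% ± 4.86 of out-of-frame Trbd1 rearrangements. Among productive rearrangements the shares were 29.2% ± 7.40 for Trbd2 and 4.18% ± 1.45 for Trbd1. When neighbors were looked for in the TdLN of another mouse instead, 0.954% ± 0.570 of out-of-frame Trbd2 and 0.432% ± 0.0729 of productive Trbd2 rearrangements had one. Shares are therefore given below both for all rearrangements and without every rearrangement that has a neighbor, wherever the second changes a call or a direction. How the pairs arose was not tested.

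Over all rearrangements, Trbd1 and Trbd2 each made up close to 40% of unique TCRs in all 3 tissues. The comparison of tumor with TdLN asks whether the D gene makeup of the tumor repertoire departs from that of the node. In the TdLN, Trbd1 made up 44.4%, 43.7%, 40.2%, 44.5% and 44.1% of unique productive TCRs in mice 1 to 5, with a mean of 43.4% ± 1.80 (SD, n = 5). Trbd2 made up 38.5%, 39.1%, 40.4%, 37.7% and 38.1%, with a mean of 38.7% ± 1.06 (SD, n = 5). Trbd1 exceeded Trbd2 in 4 of 5 nodes, and mouse 3 was the exception. A further 17.9% ± 0.897 (SD, n = 5) had no D gene assigned. Without 1-base indel neighbors, the TdLN means were 48.5% ± 1.36 for Trbd1 and 31.9% ± 1.58 for Trbd2 (SD, n = 5). Trbd1 was then the higher one in every node, with 47.2% against 30.9% in mouse 3.

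In tumor 1, Trbd1 made up 40.4%, 38.0%, 38.8%, 43.7% and 40.9% of unique productive TCRs in mice 1 to 5. Each of these was below the TdLN of the same mouse, but the groups overlapped. The mean of 40.4% ± 2.21 (SD, n = 5) was 3.02 percentage points below that of the TdLN (exact permutation p = 0.0714, adjusted p = 0.207 over 29 tests). Without 1-base indel neighbors the difference was -3.39 points (exact permutation p = 0.0397, unadjusted). Weighted by templates it was 2.80 points in the other direction (exact permutation p = 0.825). Trbd2 made up 40.2% ± 2.80 and the unassigned class 19.4% ± 1.87 of tumor 1 TCRs (SD, n = 5), and neither was distinguishable from the TdLN (exact permutation p = 0.325 and p = 0.143). Weighted by templates, the Trbd2 difference turned from 1.47 to -7.57 points (exact permutation p = 0.175). The unassigned share was 3.28 points higher than in the TdLN without neighbors (exact permutation p = 0.0159, unadjusted) and turned to -1.53 points with at least 2 templates (exact permutation p = 0.317). Leaving out neighbors removed 37.7% of Trbd2, 12.7% of Trbd1 and 8.22% of unassigned productive TCRs in tumor 1. In the TdLN it removed 29.2%, 4.18% and 6.35%. This unequal removal enters the differences without neighbors, which compare the filtered sets.

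Tumor 2 varied more. Trbd1 made up 40.2%, 36.5%, 46.9%, 48.0% and 37.4% of unique productive TCRs in mice 1 to 5, and Trbd2 made up 39.6%, 44.8%, 27.8%, 38.0% and 39.8%. The low Trbd2 share was in mouse 3, where 21.6% of unique TCRs were small copies of larger clones with the same last 40 bases. The mean Trbd1 share of 41.8% ± 5.35 and the mean Trbd2 share of 38.0% ± 6.22 (SD, n = 5) were not distinguishable from the TdLN over unique TCRs (exact permutation p = 0.508 and p = 0.865). Weighted by templates, Trbd2 made up 27.5% in tumor 2 and 39.2% in the TdLN, a difference of -11.7 points (exact permutation p = 0.0317, unadjusted). With D calls of at least 8 bases only, Trbd1 made up 11.2% and 14.3%, a difference of -3.12 points (exact permutation p = 0.00794, unadjusted). The unassigned share was 20.2% ± 4.26, or 2.34 points above the TdLN (exact permutation p = 0.278). Leaving out tumor 2 of mouse 4, which had 50 unique TCRs, but not its TdLN raised that difference to 3.89 points (exact permutation p = 0.0159, unadjusted). Leaving out each mouse in turn from both tissues, it ranged from 1.45 to 3.87 points (exact permutation p from 0.0571 to 0.6). Weighting by templates raised it to 12.9 points (exact permutation p = 0.00794, unadjusted). With at least 2 templates it turned to -1.14 points (exact permutation p = 0.944). Rearrangements also listed in other mice held 93.4%, 88.2%, 93.3%, 76.5% and 11.8% of productive tumor 2 templates in mice 1 to 5. Template-weighted values of different mice thus partly count the same sequences and are not independent. The largest unassigned clone held 422 of 997, 498 of 1056, 891 of 1178, 48 of 54 and 529 of 926 unassigned templates.

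Counted among TCRs with an assigned D gene only, the Trbd1 share averaged 52.8% ± 1.70 for nodes, 50.1% ± 2.87 for the first tumors and 52.5% ± 6.98 for the second (SD, n = 5). Tumor 1 was lower than the TdLN in 5 of 5 mice, by 2.70 points on average (exact permutation p = 0.127). Without rearrangements that had a neighbor of at least as many templates it was lower by 4.26 points (exact permutation p = 0.0397, unadjusted). That setting removed 4.47% of Trbd1 and 9.33% of Trbd2 TCRs in tumor 1, and 1.51% and 12.2% in the TdLN. The unequal removal enters the difference.

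**Figure D1:**
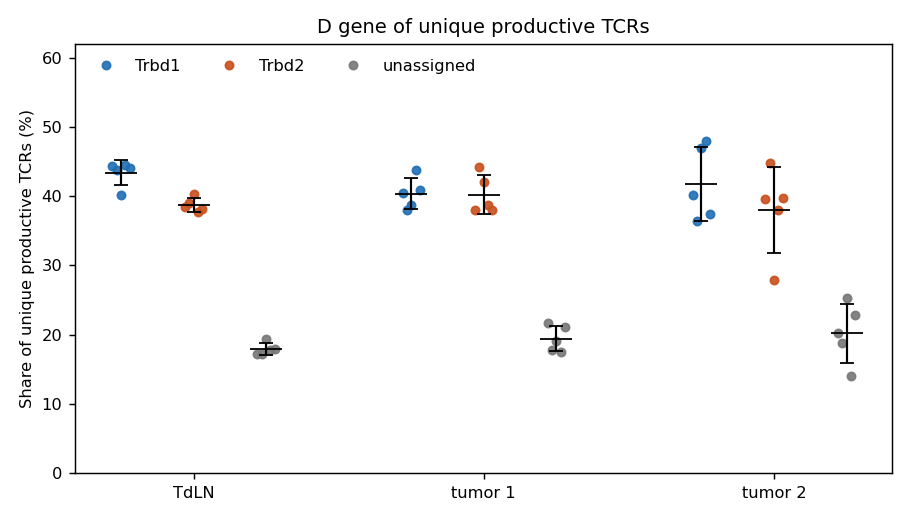
Share of unique productive TCRs (%) with Trbd1, Trbd2 or no assigned D gene in the TdLN, tumor 1 and tumor 2. Each point is 1 mouse, and horizontal lines with bars show the mean ± SD of 5 mice. The 5 TdLN samples lie close together (Trbd1 40.2% to 44.5%), and tumor 2 spreads from 36.5% to 48.0%.

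Trbd1 joined both J clusters and Trbd2 almost always the cluster behind it. In the TdLN, Trbj1 genes were the partners of 51.0%, 47.7%, 54.1%, 52.0% and 54.7% of unique productive Trbd1 TCRs in mice 1 to 5, a mean of 51.9% ± 2.81 (SD, n = 5). For Trbd2 the same share was 6.18%, 7.22%, 4.99%, 6.73% and 6.47%. No Trbd2 sample came near any Trbd1 sample. Unassigned TCRs lay between them, with 42.9% ± 2.92 joined to Trbj1. The Trbj1 share of Trbd1 TCRs was 50.7% ± 6.23 in tumor 1 and 49.96% ± 6.21 in tumor 2 (SD, n = 5), and neither was distinguishable from the TdLN (exact permutation p = 0.706 and p = 0.532). In tumor 2 the difference was -4.89 points with D genes called anew from 6 or more matching bases (exact permutation p = 0.0397, unadjusted) and 2.05 points with at least 2 templates (exact permutation p = 0.595). For Trbd2 it was 9.88% ± 1.53 in tumor 1 and 7.16% ± 1.71 in tumor 2, given as a description.

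The Trbd2 TCRs listed with a Trbj1 gene had short D stretches. In the TdLN samples together, the Trbj1 share of Trbd2 TCRs was 19.7% (118 of 600, 95% Wilson interval 16.7% to 23.0%) where 3 to 5 D bases were kept and 12.4% (193 of 1558) where 6 or 7 were kept. With 8 or 9 bases it was 2.58% (43 of 1664), and with 10 to 14 bases it was 0 of 2096 (interval up to 0.183%). Trbd1 showed no such fall, with 52.0%, 53.4%, 53.8% and 48.7% over the same lengths. These intervals cover counting error only. The letters kept also differed by partner. Over all samples, the ACT of Trbd2, which includes the base that tells it from Trbd1, remained in 57.9% of 6676 productive Trbd2 joins to Trbj2 and in 12.7% of 490 joins to Trbj1. Stretches of G and C alone made up 8.75% and 34.1%. The stretches most often listed for Trbd2 with Trbj1 were GGGGGG (52 of 490) and GGGGGGG (46 of 490), whereas with Trbj2 the first was GGGACTGGGGG (299 of 6676).

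**Figure D2:**
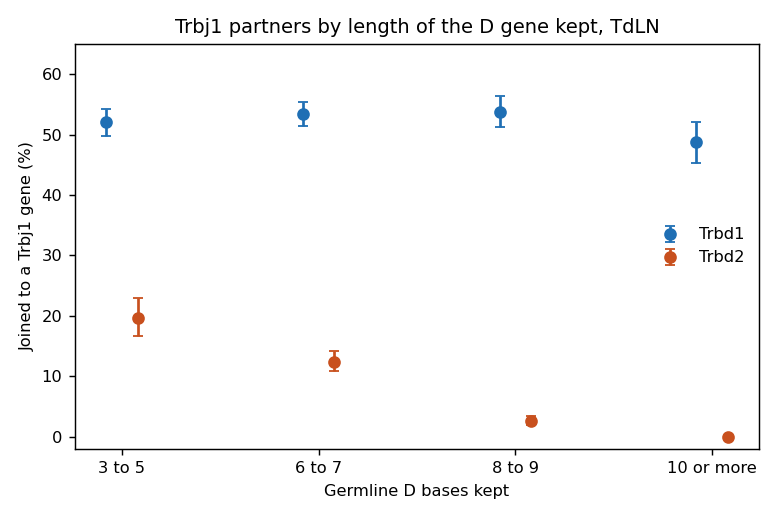
Share of unique productive TCRs joined to a Trbj1 gene (%) against the number of germline D bases kept, for Trbd1 and Trbd2, TdLN samples of 5 mice together. Bars are 95% Wilson intervals, which cover counting error only. Trbd2 falls from 19.7% at 3 to 5 bases to 0 of 2096 TCRs at 10 or more bases, and Trbd1 stays between 48.7% and 53.8%.

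Single J genes followed the same division. The 2 partners most used by Trbd1 in the TdLN were Trbj2-7 (15.6% ± 1.66 of unique productive Trbd1 TCRs) and Trbj1-1 (15.4% ± 2.35, SD, n = 5), one from each cluster. Those of Trbd2 were Trbj2-7 (30.7% ± 1.93) and Trbj2-1 (17.7% ± 0.597). Within Trbj2, where both genes can be used, Trbd1 made up 36.5% ± 2.47 of TCRs with an assigned D gene.

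Productive and out-of-frame rearrangements of the TdLN were compared next, since an out-of-frame chain is carried along without being expressed. Over all rearrangements, Trbd1 made up 53.6%, 52.8%, 49.9%, 54.2% and 53.6% of D-assigned productive rearrangements in mice 1 to 5, and 42.6%, 48.5%, 40.9%, 47.7% and 40.6% of out-of-frame ones. The groups did not overlap. The means of 52.8% ± 1.70 and 44.1% ± 3.77 (SD, n = 5) differed by 8.76 points (exact permutation p = 0.00794, the smallest that 5 against 5 allows, adjusted p = 0.0384).

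The difference in the Trbd1 share turned around without the 1-base indel neighbors. Trbd1 then made up 60.9%, 58.1%, 60.4%, 59.7% and 62.6% of D-assigned productive rearrangements and 65.5%, 64.8%, 66.7%, 67.1% and 66.8% of out-of-frame ones. Again the groups did not overlap, but out-of-frame was now the higher one, by 5.86 points (exact permutation p = 0.00794, unadjusted). This setting, chosen after seeing the data, removed 64.98% of out-of-frame and 29.2% of productive Trbd2 rearrangements. For Trbd1 it removed 14.5% and 4.18%. The unequal removal enters the difference, so the test compares the filtered sets and cannot tell apart D gene use. The difference also turned with the number of templates. Among rearrangements with 1 template, Trbd1 made up 52.8% ± 2.401 of productive and 38.0% ± 4.57 of out-of-frame ones (SD, n = 5). Among those with at least 2 templates the shares were 52.8% ± 1.58 and 62.6% ± 2.54, a difference of -9.74 points (exact permutation p = 0.00794, unadjusted). This cut was unequal as well. Rearrangements with 1 template made up 83.4% of out-of-frame Trbd2 and 64.9% of out-of-frame Trbd1 rearrangements. Among productive ones they made up 62.3% and 62.2%. The test at this cut therefore cannot tell apart D gene use either. Runs of at least 6 G were present in 69.2% ± 1.87 of out-of-frame Trbd2 rearrangements with 1 template and in 52.6% ± 9.62 of those with more, against 52.1% ± 2.96 and 50.7% ± 1.31 of productive ones.

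**Figure D3:**
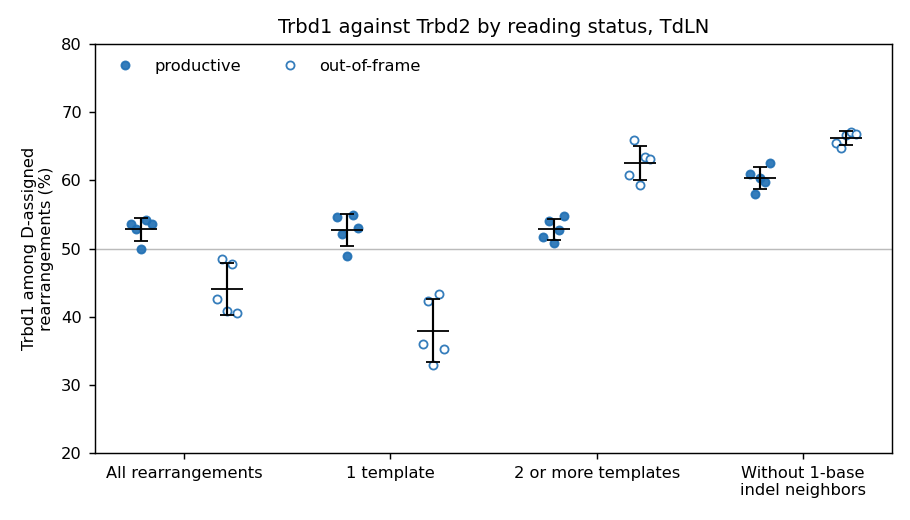
Trbd1 among D-assigned rearrangements (%) in productive (filled) and out-of-frame (open) rearrangements of the TdLN, for all rearrangements, for those with 1 template, for those with 2 or more templates, and without 1-base indel neighbors. Each point is 1 mouse, horizontal lines with bars show the mean ± SD of 5 mice, and the axis starts at 20%. The out-of-frame points lie below the productive points in the first pair of groups (44.1% against 52.8%) and above them in the last (66.2% against 60.3%).

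The unassigned share also depended on the neighbors. It was 17.9% ± 0.897 of productive and 15.1% ± 1.32 of out-of-frame rearrangements in the TdLN (SD, n = 5), higher in 5 of 5 nodes (exact permutation p = 0.00794, adjusted p = 0.0384). Without 1-base indel neighbors the shares were 19.6% ± 1.37 and 19.5% ± 1.83, a difference of 0.0279 points (exact permutation p = 0.984). The Trbj1 share of Trbd1 rearrangements was 51.9% in productive and 54.2% in out-of-frame ones, a difference of -2.24 points (exact permutation p = 0.103). It was -3.62 points without neighbors (exact permutation p = 0.0397), -7.38 points with at least 2 templates and -12.6 points weighted by templates (exact permutation p = 0.00794 for each, all unadjusted). The productive minus out-of-frame difference in the Trbd1 share of all D-assigned rearrangements was 7.22 points in tumor 1 and 7.99 points in tumor 2, and neither was distinguishable from the 8.76 points of the TdLN (exact permutation p = 0.524 and p = 0.722).

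The ends of both D genes were trimmed before joining. In the TdLN, unique productive TCRs kept 6.69 ± 0.0729 bases of Trbd1 and 8.43 ± 0.0812 bases of Trbd2 (SD, n = 5), descriptions that depend on the call itself, since a stretch must be long enough to be told apart. Trbd1 lost 2.10 bases on the V side and 3.21 on the J side. Trbd2 lost 2.89 on the V side and 2.68 on the J side. The whole segment survived in 2.04% of Trbd1 and 2.10% of Trbd2 TCRs, and over all samples in 221 and 222 rearrangements. The whole-length TCRs with most templates are shown because they hold the germline segment uncut, in capitals.
Trbd1, TdLN of mouse 3: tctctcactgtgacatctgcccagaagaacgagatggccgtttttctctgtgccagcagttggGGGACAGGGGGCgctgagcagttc
Trbd2, tumor 1 of mouse 2: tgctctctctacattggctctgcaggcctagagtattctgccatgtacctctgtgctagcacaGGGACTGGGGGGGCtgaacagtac
The first joined Trbv19 to Trbj2-1 with 3 inserted bases before D and none after it, and had 24 templates. The second joined Trbv17 to Trbj2-7 with 2 inserted bases before D and none after it.

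The V-D joints of Trbd1 and Trbd2 held similar numbers of inserted bases. In TdLN productive TCRs, the mean number of V-D insertions was 2.04, 1.92, 1.94, 1.77 and 1.69 bases for Trbd1 and 2.05, 1.95, 1.97, 1.70 and 1.69 bases for Trbd2 in mice 1 to 5. The means of 1.87 ± 0.139 and 1.87 ± 0.166 bases were not distinguishable (SD, n = 5, exact permutation p = 0.992). The D-J joint held 1.62 ± 0.129 bases in Trbd1 and 1.82 ± 0.154 bases in Trbd2 TCRs, fewer for Trbd1 in 5 of 5 nodes (exact permutation p = 0.0714). No base was inserted at either joint in 9.17% of Trbd1 and 9.28% of Trbd2 TCRs.

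Productive rearrangements had fewer insertions than out-of-frame ones on the V side of Trbd1 and the J side of Trbd2, while the other 2 joints did not pass after adjustment. For Trbd1 on the V side the means were 1.87 bases in productive and 2.21 ± 0.198 bases in out-of-frame rearrangements of the TdLN, without overlap (exact permutation p = 0.00794, adjusted p = 0.0384). For Trbd2 on the J side they were 1.82 and 2.27 ± 0.125 bases, again without overlap (exact permutation p = 0.00794, adjusted p = 0.0384). D-J insertions of Trbd1 were 1.62 and 2.01 ± 0.228 bases (exact permutation p = 0.0159, adjusted p = 0.0575). V-D insertions of Trbd2 were 1.87 and 2.07 ± 0.156 bases (exact permutation p = 0.111), and the difference grew from -0.194 to -0.503 bases without 1-base indel neighbors (exact permutation p = 0.0317, unadjusted). The productive mean was the lower one in 5 of 5 nodes at each of these 4 joints. The V-D difference of Trbd1 was not past the threshold among rearrangements with at least 2 templates (-0.148 bases, exact permutation p = 0.222), weighted by templates (-0.0691 bases, exact permutation p = 0.905) or within Trbj2 (-0.3002 bases, exact permutation p = 0.0556). The D-J difference of Trbd1 was not past it weighted by templates (-0.34 bases, exact permutation p = 0.0873), with D genes called anew (-0.268 bases, exact permutation p = 0.0714) or within Trbj2 (-0.196 bases, exact permutation p = 0.151).

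Trbd1 TCRs of tumor 1 had more V-D insertions than those of the TdLN by an unadjusted test only. The tumor 1 means were 2.69, 2.23, 2.28, 2.03 and 2.51 bases in mice 1 to 5, each above the TdLN of the same mouse. The mean of 2.35 ± 0.256 bases exceeded that of the TdLN by 0.477 bases (exact permutation p = 0.0159, adjusted p = 0.0575). Without small copies of large clones the difference was 0.258 bases (exact permutation p = 0.0556) and with at least 2 templates 0.265 bases (exact permutation p = 0.190). Leaving out mouse 2, 3 or 5 gave an exact permutation p of 0.0571, and the smallest that 4 against 4 allows is 0.0286. Trbd2 TCRs had 1.89 ± 0.221 V-D insertions in tumor 1, not distinguishable from the TdLN (exact permutation p = 0.897). With at least 2 templates the difference was -0.206 bases (exact permutation p = 0.0476, unadjusted). D-J insertions were not distinguishable between tumor 1 and TdLN for Trbd1 (0.167 bases, exact permutation p = 0.278) or Trbd2 (0.061 bases, exact permutation p = 0.794) over unique TCRs. Weighted by templates, the Trbd1 difference was -0.516 bases (exact permutation p = 0.00794, unadjusted). Single clones weigh heavily in that value. In tumor 1 of mouse 1, a clone with 0 D-J insertions held 2948 of 3347 productive Trbd1 templates. In mouse 3, a clone with 1 D-J insertion held 2476 of 2974. The difference between Trbd1 and Trbd2 in V-D insertions was 0.459 bases larger in tumor 1 than in the TdLN (exact permutation p = 0.0476, adjusted p = 0.381 over 8 such tests).

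**Figure D4:**
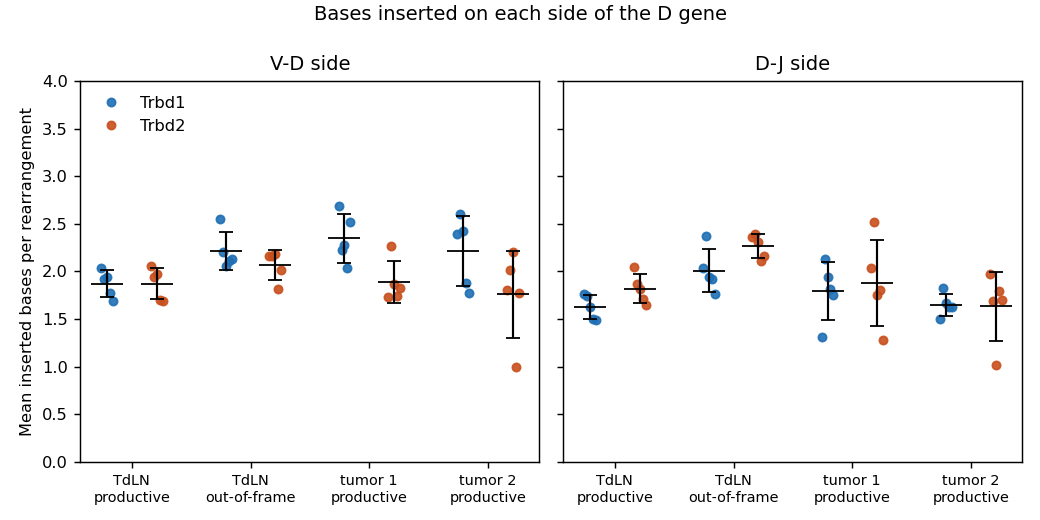
Mean number of inserted bases per rearrangement on the V-D side (left) and the D-J side (right) of Trbd1 and Trbd2, in TdLN productive, TdLN out-of-frame, tumor 1 productive and tumor 2 productive rearrangements. Each point is 1 mouse, and horizontal lines with bars show the mean ± SD of 5 mice. On the V-D side both genes average 1.87 bases in TdLN productive TCRs, and Trbd1 averages 2.35 bases in tumor 1.

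The reading frame of D sets which residues it adds. Frame 1, in which the first germline base begins a codon, reads as GTGG in both genes. Frame 2 reads as GQG in Trbd1 and GLGG in Trbd2, and frame 3 as DRG and DWGG. In TdLN productive TCRs, frame 1 was used by 41.1%, 36.3%, 38.3%, 35.8% and 36.2% of Trbd1 rearrangements in mice 1 to 5, against 34.2%, 29.0%, 32.7%, 32.6% and 30.1% of out-of-frame ones counted from the V side. The groups did not overlap and differed by 5.86 points (exact permutation p = 0.00794, adjusted p = 0.0384). Frame 2 of Trbd1 was the lower one in productive TCRs, with a share of 28.4% ± 2.85, and 34.9% ± 1.46 in out-of-frame ones (SD, n = 5). This difference had an exact permutation p of 0.00794 and an adjusted p of 0.0384. Frame 3 was 34.0% and 33.4% (exact permutation p = 0.706). Without 1-base indel neighbors the first and second differences were 7.25 and -7.40 points (exact permutation p = 0.00794 for each). Weighted by templates they were -1.07 and 1.68 points (exact permutation p = 0.881 and p = 0.786).

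The reference frame of an out-of-frame rearrangement is a choice, because V and J disagree in it. Counted from the J side, the difference was 1.89 points for Trbd1 frame 1 (exact permutation p = 0.278) and -4.95 points for frame 2 (exact permutation p = 0.0159). For Trbd2, frames 1, 2 and 3 made up 30.5% ± 1.80, 33.6% ± 2.25 and 35.9% ± 3.36 of productive TCRs (SD, n = 5). None of these differed from out-of-frame rearrangements counted from the V side (exact permutation p = 0.563, p = 0.183 and p = 0.246). Counted from the J side, the productive minus out-of-frame difference was -3.91 points for frame 1 and 5.22 points for frame 3 (exact permutation p = 0.00794 and p = 0.0159, unadjusted).

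The residues followed from the letters. CDR3s with Trbd2 held 1.94 ± 0.0721 glycines on average and those with Trbd1 1.27 ± 0.0386 in the TdLN (SD, n = 5). Tryptophan, which frame 3 of Trbd2 encodes, was present in 33.2%, 34.2%, 35.1%, 38.2% and 40.4% of Trbd2 CDR3s in mice 1 to 5, and in 4.52% to 8.42% of Trbd1 CDR3s. Glutamine followed by glycine, as in frame 2 of Trbd1, was present in 15.96% ± 1.49 of Trbd1 and 1.18% ± 0.318 of Trbd2 CDR3s. These values are descriptions of the assigned genes, since the D gene was called from the same bases.

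Long CDR3s held Trbd2 more often than short ones. Mean CDR3 length in the TdLN was 41.9 bases with Trbd1, 43.4 with Trbd2 and 39.4 with no assigned D gene. Among D-assigned productive TCRs, Trbd1 made up 68.0% at 12 codons, 57.6% ± 2.35 at 14, 34.5% ± 4.53 at 16 and 30.1% ± 3.66 at 17 codons (SD, n = 5). The unassigned share fell from 68.1% ± 8.28 at 10 codons to 4.26% ± 2.81 at 17. Without 1-base indel neighbors the Trbd1 share was 73.4% at 12 codons and 39.2% at 17. Length and D gene are not independent measures, as Trbd2 is the longer segment.

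**Figure D5:**
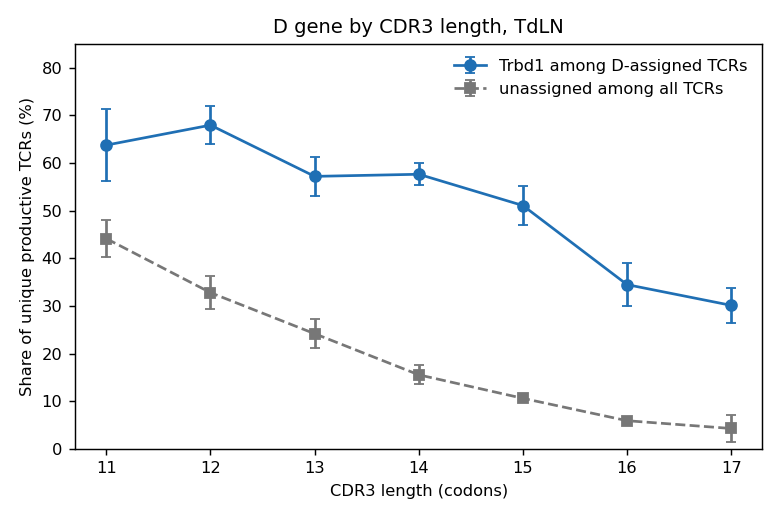
Trbd1 share of D-assigned unique productive TCRs (%, circles) and unassigned share of all unique productive TCRs (%, squares) against CDR3 length in codons, TdLN, mean ± SD of 5 mice. Trbd1 falls from 68.0% at 12 codons to 30.1% at 17, and the unassigned share falls over the whole range shown.

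The Trbd1 share also varied with the V gene. Of the 20 V genes with at least 1% of unique productive TdLN TCRs, the lowest Trbd1 shares of D-assigned TCRs were with Trbv4 (41.9% ± 3.19) and Trbv12-2 (43.9% ± 6.63, SD, n = 5). The highest were with Trbv29 (74.7% ± 5.14) and Trbv20 (68.1% ± 6.56). Every node with Trbv29 was at or above 67.7% and every node with Trbv4 at or below 46.4%. The median of the 20 V genes was 53.5%. The productive share was above the out-of-frame share in 17 of the 20 V genes over all rearrangements and in 3 of the 20 without 1-base indel neighbors.

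Clone sizes were similar in the TdLN and uneven in the tumors. A unique productive TCR of the TdLN had on average 2.18 templates with Trbd1, 2.22 with Trbd2 and 2.17 with no assigned D gene. In tumor 1 the means were 21.5 ± 15.7 with Trbd1, 12.4 ± 1.88 with Trbd2 and 18.6 ± 9.73 without assignment (SD, n = 5), and no test was made. By templates, Trbd1 held 21.04% to 74.8% of the productive repertoire of tumor 1, and in mice 1 and 3 a single Trbd1 clone held 48.0% and 62.3% of all productive templates.

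The leading Trbd1 TCR of tumor 1 held 48.0%, 7.97%, 62.3%, 10.1% and 5.998% of productive templates in mice 1 to 5. The clones of mice 1 and 3 are shown because they were the largest Trbd1 clones of the 5 tumors, with D bases in capitals.
Mouse 1 (Trbv16, Trbj2-7): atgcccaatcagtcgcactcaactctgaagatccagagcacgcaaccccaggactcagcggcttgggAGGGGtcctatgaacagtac
Mouse 3 (Trbv12-1, Trbj1-3): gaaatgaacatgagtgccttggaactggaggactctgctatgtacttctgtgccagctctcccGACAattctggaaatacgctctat
The first was counted with 2948 templates in tumor 1, while the TdLN had 409 and tumor 2 had 1335, and samples of other mice had 306. It is listed as productive, with a CDR3 that does not begin with the cysteine that usually opens one. The second was counted with 2476 templates in tumor 1, while the TdLN had 106 and tumor 2 had 118, and samples of other mice had 94. Both TCRs kept few D bases, 5 and 4.

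Among the leading Trbd2 TCRs of tumor 1, those of mice 1, 3, 4 and 5 read D in frame 3, with aspartate followed by tryptophan, and held 8.47%, 6.22%, 7.26% and 18.9% of productive templates. That of mouse 2 read it in frame 1, kept all 14 bases and held 24.6%. This clone, shown above, was counted with 1032 templates in tumor 1, while the TdLN had 54 and tumor 2 had 707, and samples of other mice had 85. In tumor 1 it had 5 1-base indel neighbors with 22 templates in all, and the leading Trbd2 clone of mouse 1 had 7 with 36 templates. Those of mice 3, 4 and 5 had 3, 4 and 4 neighbors with 3, 7 and 5 templates. The leading Trbd1 TCRs had 3 to 7 neighbors with 4 to 11 templates.

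Tumor TCRs of both D genes were also found in the TdLN of the same mouse. In tumor 1 this held for 41.4%, 37.8%, 42.3%, 13.1% and 21.7% of unique Trbd1 TCRs and 50.5%, 37.2%, 51.9%, 9.86% and 23.4% of unique Trbd2 TCRs in mice 1 to 5. Mice 4 and 5 were low for both genes. In tumor 2 the ranges were 3.30% to 28.03% for Trbd1 and 0% to 26.5% for Trbd2. The 0% was in mouse 3 (0 of 54 TCRs, which allows a share of up to 5.56%, counting error only). TCRs of both genes were also found in samples of other mice. In tumor 1 this held for 7.04% to 21.6% of unique Trbd1 and 2.60% to 28.7% of unique Trbd2 TCRs. In tumor 2 it held for 56.4%, 45.5%, 40.7%, 37.5% and 4.35% of unique Trbd1 TCRs in mice 1 to 5, above the share found in the TdLN of the same mouse in 4 of 5 mice. How sequences came to be listed in several mice, and what part this has in the shares found in the TdLN, was not tested.

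A single rearrangement was listed with both D genes, which is possible because Trbd1 can join Trbd2 before J. It is shown with the Trbd2 bases in capitals, and 10 bases that match Trbd1 lie before them.
Tumor 2 of mouse 3 (Trbv13-2, Trbj2-5): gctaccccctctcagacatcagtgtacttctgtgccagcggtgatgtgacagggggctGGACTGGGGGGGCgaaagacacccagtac
It was productive and had 1 template.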

How the data were processed

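T cells of 15 samples were sorted by the authors, and genomic DNA was read with the immunoSEQ assay. The deposited files list counts of templates per rearrangement, D calls, trimming and insertions, made by the assay's software. Its version and gene reference are not given in the sources used here. The labels name mm10, and coordinates are of GRCm38. D genes, statuses and insertion counts were used as deposited. Insertions before D were taken as V-D after comparison with the index columns.

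Tissues, D genes and reading states (productive or out-of-frame) were compared by exact permutation of per-sample means, without pairing (two-sided, 252 splits of 5 against 5). The p-values were Benjamini-Hochberg adjusted over 29 tests, in Python 3.11.15 with numpy 2.4.6, pandas 2.3.3 and scipy 1.17.1. The test was tried only on simulated binomial counts for the Trbd1 share of tumor 1 and TdLN, without spread between mice. p-values measure the spread between samples, and those between values of the same samples ignore that they are paired. The members, lists and tests were chosen with earlier results of these data known. Same-numbered samples were taken as 1 mouse, which the labels do not state. Deviations of TdLN and tumor 1 in 8 measures correlated at -0.0493, 0.368, 0.501, 0.438 and 0.374 in mice 1 to 5, those of TdLN and tumor 2 at 0.172, 0.695, -0.108, 0.391 and 0.191. Named TCRs were the one with most templates per D gene in each tumor 1, and the whole-length and V-D-D-J examples. A new call from 6 or more unique bases kept 69.3% of Trbd1 and 90.0% of Trbd2 calls and switched none. Intervals cover counting error only.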

Additional observations from a re-analysis of the deposited data

Results flagged for a closer look

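In 90 groups of 5 samples, 6 held a sample far from the other 4 by Dixon's criterion, about the 1 in 20 that chance gives. The Trbd1 share of productive TCRs was 40.2% in the TdLN of mouse 3 against 43.7% to 44.5% in the others. In tumor 1 of mouse 5, Trbd1 made up 30.7% of out-of-frame rearrangements (others 35.6% to 37.3%) and 38.5% of D-assigned ones (others 43.6% to 44.4%). Out-of-frame Trbd1 rearrangements had 5.55 V-D insertions in tumor 1 of mouse 4 (others 3.36 to 3.72). Productive Trbd2 TCRs had 2.27 V-D insertions in tumor 1 of mouse 2 (others 1.73 to 1.87). Frame 1 was read by 40.7% of productive Trbd2 TCRs in tumor 2 of mouse 3 (others 29.0% to 32.1%).

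The Trbd1 minus Trbd2 difference in V-D insertions was larger in tumor 1 than in the TdLN by 0.459 bases (exact permutation p = 0.0476, adjusted p = 0.381 over 8 tests). It was above 0 in 4 of 5 tumors and 1 of 5 nodes.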

How the results depend on the processing

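Values are differences of means (tumor minus TdLN, or productive minus out-of-frame by reading state), in percentage points for shares and in bases for insertions, and the threshold is an unadjusted exact permutation p of 0.05. Among the results fixed as answers to a comparison, 311 recomputed values kept their direction and side of the threshold, and 52 turned, 37 lost it and 23 passed it. The settings that leave out 1-base indel neighbors, and the one that requires TGT or TGC at the CDR3 start, were chosen after seeing the data. The causes of these changes were not tested. The settings that leave out neighbors, and the one of at least 2 templates, drop unequal shares of the compared groups, which enters their differences. Depth was lowest in tumor 2 of mouse 4, with 50 unique TCRs.

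With the mouse as a block (the replicate block, pairing samples of the same mouse) the smallest p that 5 pairs allow is 0.0625, so no call can be kept. The differences that lost the threshold there were V-D insertions of Trbd1 in tumor 1 (0.477), unassigned share by reading state (2.78), Trbd1 share of D-assigned by reading state (8.76), V-D insertions of Trbd1 by reading state (-0.341), D-J insertions of Trbd1 by reading state (-0.382), D-J insertions of Trbd2 by reading state (-0.449), Trbd1 frame 1 share by reading state (5.86) and Trbd1 frame 2 share by reading state (-6.45). Leaving out each mouse in turn, the values ranged as follows where a direction or a call changed: Trbd2 share in tumor 2 -2.35 to 2.21, J1 share of Trbd1 in tumor 1 -2.83 to 0.591, Trbd1 share of D-assigned in tumor 2 -3.66 to 1.53, V-D insertions of Trbd1 in tumor 1 0.39 to 0.531, V-D insertions of Trbd2 in tumor 1 -0.0595 to 0.103, D-J insertions of Trbd1 in tumor 1 0.111 to 0.323, D-J insertions of Trbd2 in tumor 1 -0.0878 to 0.168, D-J insertions of Trbd1 by reading state -0.411 to -0.319, V-D insertions of Trbd1 minus Trbd2 -0.0189 to 0.00753, Trbd1 frame 3 share by reading state -1.01 to 1.63 and Trbd2 frame 1 share by reading state -0.0629 to 1.02. The unassigned share in tumor 2 ranged from 1.45 to 3.87 with neither a turn nor a change of call.

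Weighted by templates, Trbd1 share in tumor 1 (2.8), Trbd2 share in tumor 1 (-7.57), Trbd1 share of D-assigned in tumor 1 (4.64), J1 share of Trbd1 in tumor 1 (0.544), Trbd1 share of D-assigned in tumor 2 (7.46), D-J insertions of Trbd1 in tumor 1 (-0.516), D-J insertions of Trbd2 in tumor 1 (-0.146), Trbd1 share of D-assigned by reading state (-0.0213), V-D insertions of Trbd1 minus Trbd2 (0.315), Trbd1 frame 1 share by reading state (-1.07), Trbd1 frame 2 share by reading state (1.68), Trbd1 frame 3 share by reading state (-0.608) and Trbd2 frame 1 share by reading state (-0.66) turned to the opposite direction. There, V-D insertions of Trbd1 in tumor 1 (0.764), unassigned share by reading state (1.56), V-D insertions of Trbd1 by reading state (-0.0691) and D-J insertions of Trbd1 by reading state (-0.34) lost the unadjusted threshold. In this setting, Trbd2 share in tumor 2 (-11.7), unassigned share in tumor 2 (12.9), J1 share of Trbd1 by reading state (-12.6) and V-D insertions of Trbd2 by reading state (-0.257) passed it. With all reading states counted, Trbd1 share in tumor 1 (-3.1), unassigned share in tumor 1 (1.85), unassigned share in tumor 2 (2.74) and V-D insertions of Trbd2 in tumor 1 (0.583) passed it. With at least 2 templates, Trbd2 share in tumor 2 (3.01), unassigned share in tumor 1 (-1.53), unassigned share in tumor 2 (-1.14), J1 share of Trbd1 in tumor 1 (0.205), J1 share of Trbd1 in tumor 2 (2.05), V-D insertions of Trbd2 in tumor 1 (-0.206), Trbd1 share of D-assigned by reading state (-9.74), V-D insertions of Trbd1 minus Trbd2 (0.0576), Trbd1 frame 3 share by reading state (-0.324), Trbd2 frame 2 share by reading state (-2.78) and Trbd2 frame 3 share by reading state (0.929) turned to the opposite direction. Under it, V-D insertions of Trbd1 in tumor 1 (0.265), unassigned share by reading state (1.82) and V-D insertions of Trbd1 by reading state (-0.148) lost the unadjusted threshold. There, J1 share of Trbd1 by reading state (-7.38) passed it. With D genes called anew from 6 or more matching bases, V-D insertions of Trbd2 in tumor 1 (-0.0386), D-J insertions of Trbd2 in tumor 1 (-0.0619), V-D insertions of Trbd1 minus Trbd2 (0.0269) and Trbd1 frame 3 share by reading state (-1.05) turned to the opposite direction. In this setting, D-J insertions of Trbd1 by reading state (-0.268) lost the unadjusted threshold. Under it, J1 share of Trbd1 in tumor 2 (-4.89) passed it. With calls of at least 8 bases, Trbd2 share in tumor 2 (0.903), D-J insertions of Trbd2 in tumor 1 (-0.0821), Trbd1 frame 3 share by reading state (-2.27) and Trbd2 frame 1 share by reading state (-0.0671) turned to the opposite direction. There, V-D insertions of Trbd1 in tumor 1 (0.412) lost the unadjusted threshold. In this setting, Trbd1 share in tumor 2 (-3.12) and D-J insertions of Trbd1 in tumor 1 (0.499) passed it. Within Trbj2, Trbd1 share of D-assigned in tumor 2 (0.779), V-D insertions of Trbd2 in tumor 1 (-0.0107) and V-D insertions of Trbd1 minus Trbd2 (0.00696) turned to the opposite direction. Under it, V-D insertions of Trbd1 by reading state (-0.3002) and D-J insertions of Trbd1 by reading state (-0.196) lost the unadjusted threshold. Without small copies of large clones, Trbd2 share in tumor 2 (0.761) and V-D insertions of Trbd2 in tumor 1 (-0.026) turned to the opposite direction. There, V-D insertions of Trbd1 in tumor 1 (0.258) lost the unadjusted threshold. Counting distinct CDR3s, Trbd2 share in tumor 2 (0.516) and V-D insertions of Trbd2 in tumor 1 (-0.0333) turned to the opposite direction. In this setting, Trbd1 share in tumor 1 (-3.02) passed it. In mice 1 to 3 alone, where the smallest possible p is 0.1, J1 share of Trbd1 in tumor 1 (1.64), Trbd1 share of D-assigned in tumor 2 (0.577), J1 share of Trbd1 in tumor 2 (0.144) and V-D insertions of Trbd2 in tumor 1 (-0.0319) turned to the opposite direction. Under it, V-D insertions of Trbd1 in tumor 1 (0.433), unassigned share by reading state (3.43), Trbd1 share of D-assigned by reading state (8.09), V-D insertions of Trbd1 by reading state (-0.307), D-J insertions of Trbd1 by reading state (-0.408), D-J insertions of Trbd2 by reading state (-0.444), Trbd1 frame 1 share by reading state (6.65) and Trbd1 frame 2 share by reading state (-8.85) lost the unadjusted threshold. In mice 4 and 5, where it is 0.333, Trbd2 share in tumor 2 (1.01), D-J insertions of Trbd2 in tumor 1 (-0.136), V-D insertions of Trbd1 minus Trbd2 (0.0359), Trbd1 frame 3 share by reading state (-1.84), Trbd2 frame 1 share by reading state (-1.31) and Trbd2 frame 3 share by reading state (1.1) turned to the opposite direction. There, V-D insertions of Trbd1 in tumor 1 (0.542), unassigned share by reading state (1.79), Trbd1 share of D-assigned by reading state (9.76), V-D insertions of Trbd1 by reading state (-0.391), D-J insertions of Trbd1 by reading state (-0.344), D-J insertions of Trbd2 by reading state (-0.457), Trbd1 frame 1 share by reading state (4.68) and Trbd1 frame 2 share by reading state (-2.84) lost the unadjusted threshold. Without tumor 2 of mouse 4, unassigned share in tumor 2 (3.89) passed it. With frames counted from the J side, Trbd1 frame 1 share by reading state (1.89) lost the threshold, and Trbd2 frame 1 share by reading state (-3.91), Trbd2 frame 2 share by reading state (-1.31) and Trbd2 frame 3 share by reading state (5.22) turned to the opposite direction. Without neighbors of at least as many templates, V-D insertions of Trbd2 in tumor 1 (-0.00336), unassigned share by reading state (-0.193), Trbd1 share of D-assigned by reading state (-7.35) and Trbd2 frame 1 share by reading state (-0.616) turned to the opposite direction. In this setting, Trbd1 share in tumor 1 (-4.4), Trbd1 share of D-assigned in tumor 1 (-4.26), J1 share of Trbd1 by reading state (-4.12) and V-D insertions of Trbd2 by reading state (-0.44) passed it. Without any neighbors, Trbd1 share of D-assigned in tumor 2 (2.23), Trbd1 share of D-assigned by reading state (-5.86) and Trbd2 frame 1 share by reading state (-0.677) turned to the opposite direction. Under it, unassigned share by reading state (0.0279) lost the unadjusted threshold. There, Trbd1 share in tumor 1 (-3.39), unassigned share in tumor 1 (3.28), J1 share of Trbd1 by reading state (-3.62) and V-D insertions of Trbd2 by reading state (-0.503) passed it.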

Other observations

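Rearrangements with a stop codon, 363 in all, carried Trbd1 in 39.7%, Trbd2 in 36.9% and no assigned D gene in 23.4%. Out-of-frame rearrangements had a higher mean number of V-D insertions in tumor 1 than in the TdLN for both genes, with means of 3.94 ± 0.915 against 2.21 ± 0.198 bases for Trbd1 and 3.22 ± 0.408 against 2.07 ± 0.156 bases for Trbd2 (SD, n = 5). The lowest tumor 1 mean was above the highest TdLN mean for both, and this difference was not tested. The medians were closer, averaging 2.2 against 2 bases for Trbd1 and 2 against 1.6 bases for Trbd2. The share without a V-D insertion was 14.5% against 23.3% for Trbd1 and 28.1% against 28.4% for Trbd2.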
